A study of Mus musculus with 11 samples.

Results

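The genes described here build the mitotic spindle, attach it to chromosomes, and condense and part the chromosomes. They are 48 of the 37991 genes in the count table, of which 37205 had a symbol in the annotation. They were chosen by symbol as a mitotic module, with no measured value in the rule, though with earlier results of these data known. All 48 were found in the table and passed the filter on low counts in every comparison. They fall into 8 roles: the entry kinase and its cyclins, the chromosomal passenger complex, the spindle checkpoint with partners of the anaphase-promoting complex (APC/C), the centromere and kinetochore, spindle assembly factors, kinesin motors, cytokinesis factors, and condensin with other chromosome proteins.

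The libraries came from hematopoietic stem cells (HSC) of C57BL/6 mice aged 8 weeks, sorted as lineage-negative, CD48-, c-Kit+, Sca1+, CD135- and CD150+ bone marrow cells in aliquots of 1000 cells. Control HSC (4 libraries) were labelled wild type. NA10hd HSC (4 libraries) carried an NUP98-HOXA10 homeodomain fusion inserted at ROSA26 behind a stop cassette that Vav-Cre removes, and NV HSC (3 libraries) carried Nras G12D in the heterozygous state, also released by Vav-Cre. Vav-Cre acts across the blood system rather than in HSC alone. No group carried both changes, and counts per gene do not separate the mutant allele or the fusion from endogenous transcripts, so the genotypes rest on the labels. The study calls the libraries biological replicates, and the labels do not say how many animals gave each one.

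Most HSC of adult marrow rest outside the cell cycle. The mRNAs of mitotic genes are made late in the cycle, in G2 and mitosis, and are kept low in resting cells, so their level in a population reflects how many cells are in those phases and how much mRNA each such cell holds. In these bulk libraries, fewer cells of a kind and less RNA per cell cannot be told apart. Many mitotic promoters share a pair of short elements near the transcription start: the cell cycle genes homology region (CHR), to which the DREAM repressor complex and its activating counterpart with B-Myb and FoxM1 bind, and CCAAT boxes, to which NF-Y binds.

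Promoter windows from the RefSeq-derived promoter table (250 bases before and 50 after the start; GRCm38.p6) were found for 40 of the 48 genes, and each window matched NCBIM37, the build of the counts, exactly once. No window was listed for Smc4, Spc24, Tpx2, Aurkb, Pbk, Kif20a, Incenp and Ccna2. Windows were searched on both strands for the CHR letters TTTGAA, for CCAAT, and for GGCGGGAA as an E2F-type site, none of which contains another, though neighbouring matches may share bases at their ends. The stretches from 120 bases before to 20 after the start are printed for 6 genes that carry both CHR and CCAAT letters in that stretch and whose log2 fold changes are given further on, and for Mad2l1, which has neither in its whole window. They were picked after the motif search, coordinates are those of NCBIM37, and capitals mark the CHR and CCAAT letters, which read TTCAAA and ATTGG where the match is on the other strand.
Cdk1 (chr10:68815641-68815780, minus strand): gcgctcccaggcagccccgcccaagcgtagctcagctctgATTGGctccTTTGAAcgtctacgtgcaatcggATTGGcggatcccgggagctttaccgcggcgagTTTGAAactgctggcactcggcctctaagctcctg
Ccnb2 (chr9:70269342-70269481, minus strand): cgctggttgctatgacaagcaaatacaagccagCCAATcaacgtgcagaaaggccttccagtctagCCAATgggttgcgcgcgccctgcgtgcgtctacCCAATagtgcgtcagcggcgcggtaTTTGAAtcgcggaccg
Cdc20 (chr4:118109929-118110068, minus strand): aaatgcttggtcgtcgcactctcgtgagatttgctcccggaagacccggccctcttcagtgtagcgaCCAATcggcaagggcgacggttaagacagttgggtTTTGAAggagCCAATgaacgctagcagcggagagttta
Ube2c (chr2:164595309-164595448, plus strand): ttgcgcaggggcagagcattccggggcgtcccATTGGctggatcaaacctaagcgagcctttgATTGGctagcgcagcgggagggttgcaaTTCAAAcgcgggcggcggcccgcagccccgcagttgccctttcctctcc
Kif11 (chr19:37450752-37450891, plus strand): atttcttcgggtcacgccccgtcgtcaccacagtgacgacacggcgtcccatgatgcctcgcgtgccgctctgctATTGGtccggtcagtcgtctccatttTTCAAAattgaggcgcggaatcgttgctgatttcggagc
Top2a (chr11:98885484-98885623, minus strand): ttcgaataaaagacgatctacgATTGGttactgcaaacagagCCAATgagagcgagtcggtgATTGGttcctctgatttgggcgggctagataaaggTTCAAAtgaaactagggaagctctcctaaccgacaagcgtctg
Mad2l1 (chr6:66485095-66485234, plus strand): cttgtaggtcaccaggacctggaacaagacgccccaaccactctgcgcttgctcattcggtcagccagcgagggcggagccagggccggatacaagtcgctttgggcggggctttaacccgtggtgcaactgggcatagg

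The CHR letters were found in 33 of the 42 windows of these genes (78.6%), against 17.9% of all 32851 windows in the table. CCAAT was found in 32 of the 42 (76.2%) against 37.4%, and both motifs together in 29 (69%) against 6.95%. At least 2 CCAAT matches stood in 21 windows (50%), against 11.7% of all windows. GGCGGGAA was in none of the 42 windows and in 2.19% of all. Of 41 CHR matches, 29 lay within 50 bases of the start, and 54 of 69 CCAAT matches lay between 150 bases before the start and the start itself. By gene, 27 had both motifs, 4 had the CHR only (Anln, Kif15, Kif2c and Ndc80), 3 had CCAAT only (Bub1, Ccnb1 and Cenpe) and 6 had neither (Birc5, Mad2l1, Ncaph, Nuf2, Nusap1 and Tacc3). The 16 windows of DNA replication genes gave another picture, with the CHR in 6.25%, CCAAT in 75% and GGCGGGAA in 25%. In the plot of motif shares the bars for the CHR and for both motifs are higher for the 48 genes than for any other list drawn. A match is only a run of letters, and its absence says nothing about the factor.

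**Figure D1:**
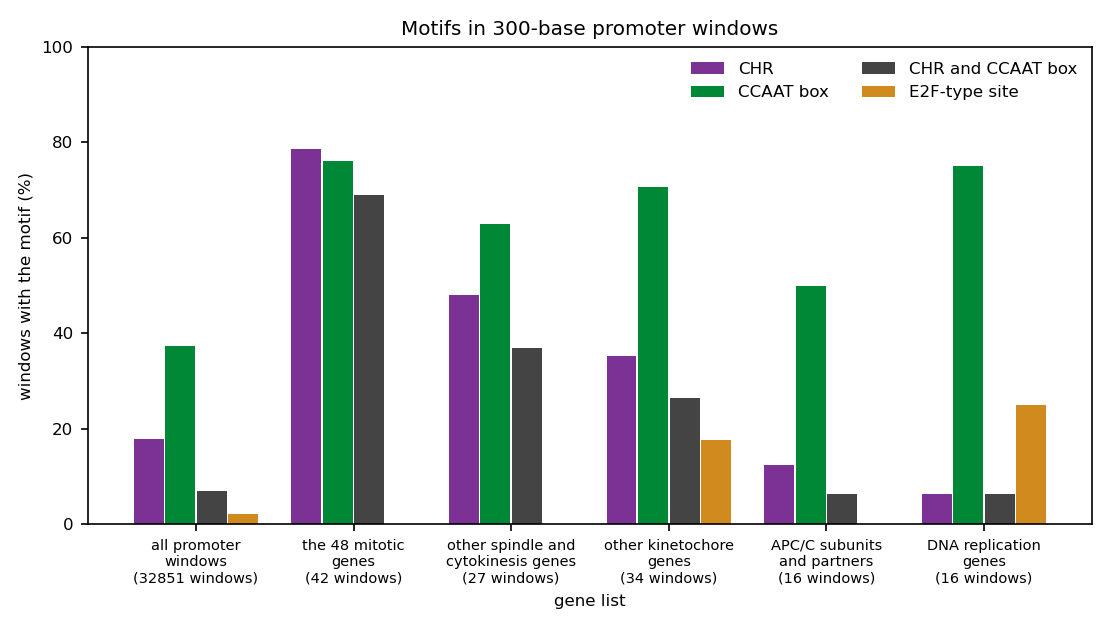
Percent of promoter windows (250 bases before to 50 after the start) (y axis) that hold the CHR letters, CCAAT, both, or the E2F-type letters, for all 32851 windows, the 48 mitotic genes (42 windows) and 4 other gene lists (x axis). The CHR was in 78.6% of the mitotic windows, against 17.9% of all windows and 6.25% of those of replication genes.

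The raw counts summed to 5464815 to 12610189 per control library, 7624638 to 12180230 per NA10hd library and 9981499 to 14283008 per NV library. A count of 0 allows up to 3 counts, and this limit covers counting error only. By total counts alone it was 0.21 to 0.549 CPM (counts scaled to a common library size) depending on the library, without the TMM factors described below. All 12 HSC marker genes passed the filter, among them Kit, Slamf1, Mecom and Hlf, and their sum lay between 2654 and 3237 CPM in control, between 3073 and 3689 CPM in NA10hd, and between 2408 and 2868 CPM in NV libraries. The libraries differed in sex. Y-linked genes had counts and Xist had none in NA10hd replicates 1 to 3 and in control replicates 1 and 4, the reverse held in NA10hd replicate 4, and both were counted in control replicates 2 and 3 and in every NV library. A gene was called where its fold change exceeded 1.5 and edgeR's quasi-likelihood test, fitted on all genes, gave an adjusted p (Benjamini-Hochberg) under 0.05. CPM were scaled by TMM (trimmed mean of M-values) factors. Log2 fold changes and adjusted p values are from that fit throughout unless another is named, and positions are those of NCBIM37.

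Control HSC held a low but measurable amount of every one of these mRNAs. The 48 genes together took 0.0751% to 0.141% of all counts of a control library, and their summed level was 733.8, 1420, 1370 and 1014 CPM in replicates 1 to 4. Per kilobase of exon, the highest control levels were those of Pbk (22.2 CPM per kb), Ccnb2 (21.1), Smc4 (19.2), Cdc20 (18.5) and Cenpa (17). The lowest were those of Cenpe (0.554) and Ncapg (0.64). Smc4 had the most counts of the 48 in each control and NA10hd library, and Top2a in each NV library.

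The summed level of the 48 genes was above the control range in every NV library. In the NA10hd libraries it was below that range, at the closest by 729.8 against 733.8 CPM, and edgeR called none of the 48 genes there. The values were 2976, 3730 and 3653 CPM in NV replicates 1 to 3 and 586.6, 729.8, 486.3 and 521.6 CPM in NA10hd replicates 1 to 4. The means were 1134 ± 322.5 CPM in control (SD, n = 4), 581 ± 107.5 in NA10hd (n = 4) and 3453 ± 415 in NV (n = 3), which is 3.04 times control for NV and 0.512 times control for NA10hd. The closest NA10hd and control libraries were NA10hd replicate 2 and control replicate 1. In the plot of summed levels the control libraries that held both sexes lie above those without Xist counts.

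**Figure D2:**
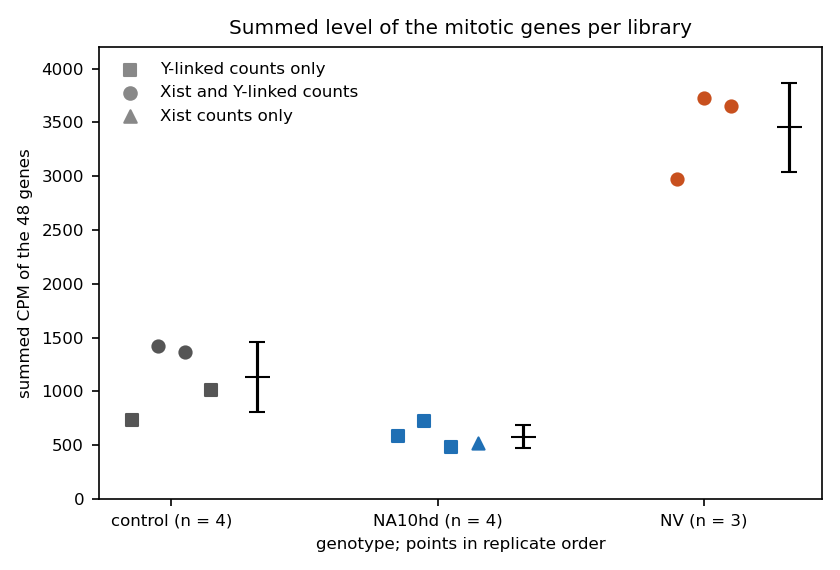
Summed CPM of the 48 genes (y axis, from 0) in each library, by genotype (x axis), with the mean ± SD beside the points and the marker shape showing whether the library had counts of Xist, of Y-linked genes or of both. NV libraries lie between 2976 and 3730 CPM, control between 733.8 and 1420, and NA10hd between 486.3 and 729.8.

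In NV against control, 39 of the 48 genes rose (81.2%), where 2.55% of all 13462 tested genes were called higher, and none fell. The log2 fold change was above 0 for all 48, against 48.6% of all tested genes, from 0.54 (Kif23) to 2.42 (Ckap2l), with a median of 1.74, against -0.01 over all tested genes. In 46 genes every NV library stood above every control library, against 9.49% of all tested genes, and the other two were Kif23 and Ect2. The 9 genes that were not called were Smc4, Ttk, Aurka, Tacc3, Kif4, Kif20a, Kif15, Kif23 and Ect2. Without NV replicate 2 the count was 25 and without NV replicate 3 it was 23, with medians of 1.64 and 1.69 and all 48 genes still above 0. The genes called higher over all those tested went from 343 to 157 and 152 in the same fits. Of the 39 called genes 22 were called whichever library was left out, and the other 17 lost the call in at least 1 such fit, most often Tpx2 (called in 1 of 7), Smc2 (2 of 7) and Kif2c (3 of 7). With all 3 genotypes in one fit, which estimates one spread over all 11 libraries, 10 of the 48 were called (background 0.592%) at a median of 1.75. Against control replicates 2 and 3 only, which held both sexes like the NV libraries, 27 were called (background 1.24%), with a median of 1.45 and a summed level 2.48 times that of those control libraries.

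In NA10hd against control none of the 48 genes was called by edgeR, and 28 had an unadjusted p under 0.05, all of them lower, where 5.26% of all 13060 tested genes did so. That number was 15 without control replicate 2 and 19 without control replicate 3. Over all genes a single one was called lower, which is 0.00766%. The log2 fold change was below 0 for 47 of the 48, against 48.5% of all tested genes, with a median of -1.20 against 0.02 over all tested genes. The exception was Ndc80 at 0.00 (SE 0.63, adjusted p = 1). In 15 genes every NA10hd library stood below every control library, against 3.94% of all tested genes. DESeq2 called 9 of the 48 lower (background 0.579%): Ccnb1, Ccna2, Aurkb, Cenpf, Tpx2, Ckap2l, Tacc3, Prc1 and Top2a. The single fit of all genotypes called Aurkb, Ckap2l and Top2a (3 genes, background 0.136%), and limma-voom called none. Between NA10hd replicates 1 to 3 and control replicates 1 and 4, which all lacked Xist counts, none was called (background 0%), the median was -0.85, 39 of the 47 genes tested were lower and 5 had an unadjusted p under 0.05, where 4.64% of all 13454 tested genes did in either direction. The summed level in those NA10hd libraries was 0.688 times that in those control libraries.

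The same control libraries stand behind both comparisons, so a low or high control library moves both at once. Control replicate 1 was the lowest control library for 41 of the 48 genes, and in 31 genes both control libraries without Xist counts stood below both that had them. Those without Xist counts, replicates 1 and 4, also had the lowest total counts, 5464815 and 7190197. Replicates 2 and 3 had 10639180 and 12610189. In control, sex mix and depth cannot be told apart, which also holds for the comparisons with matched libraries. In 15 genes the libraries of the 3 genotypes did not overlap at all, with NA10hd lowest and NV highest, against 0.835% of the 12819 genes tested in all comparisons: Ccnb1, Aurkb, Bub1, Bub1b, Ttk, Mad2l1, Tpx2, Ckap2l, Tacc3, Kif15, Prc1, Top2a, Smc2, Ncapg and Mki67. In the heat map of all 48 genes the NV columns are red in nearly every row, and the NA10hd columns are blue in most rows but uneven from library to library.

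**Figure D3:**
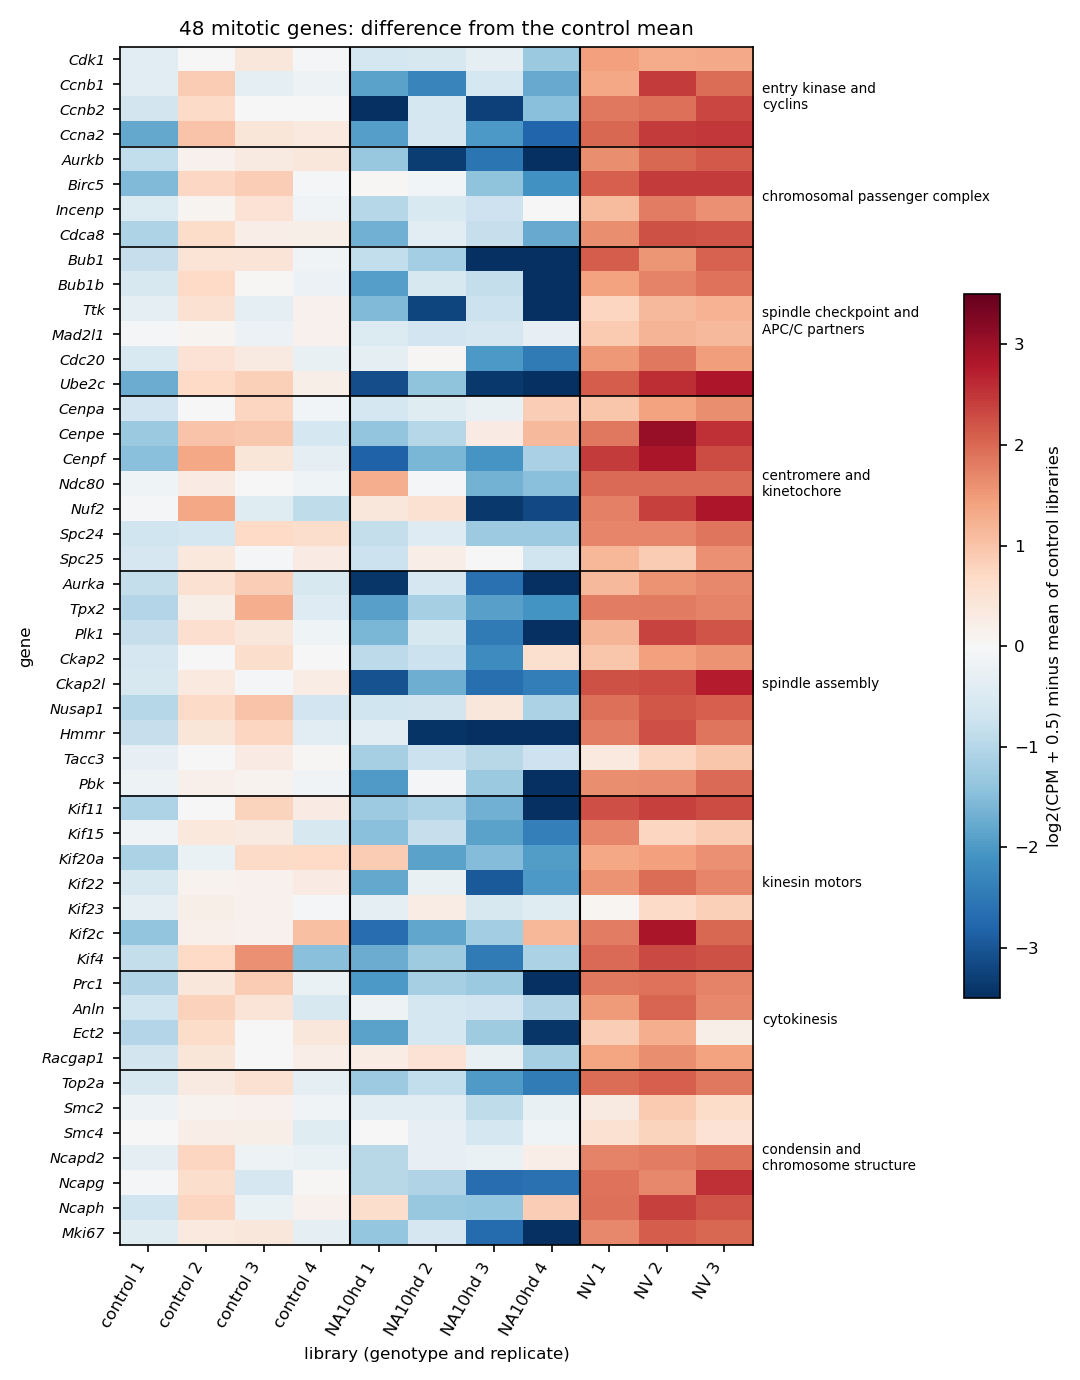
Difference of log2(CPM + 0.5) from the mean of the 4 control libraries for the 48 genes (rows, by role) in the 11 libraries (columns), red above and blue below, with colours saturated at the ends of the scale. All 3 NV libraries are above the control mean for all 48 genes, and NA10hd replicates 3 and 4 hold the deepest decreases.

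Cdk1, the kinase that drives entry into mitosis, and its cyclin partners all rose in NV (4 of 4, median 1.93), and their median in NA10hd against control was -1.76, or -1.1 with libraries matched for Xist and Y-linked counts. Cdk1 (ENSMUSG00000019942, chromosome 10, 68799383 to 68815686) stood at 20.4, 27.2, 35.5 and 25.8 CPM in control replicates 1 to 4, 17.2, 18, 21.1 and 10.6 CPM in NA10hd replicates 1 to 4, and 73.1, 66.6 and 67.2 CPM in NV replicates 1 to 3. The NV libraries were all above control, and NA10hd replicate 3 overlapped the lowest control library. The log2 fold change was 1.33 (SE 0.19, adjusted p = 0.00254) in NV and -0.70 (SE 0.30, adjusted p = 0.387) in NA10hd. Ccnb2, a B-type cyclin (ENSMUSG00000032218, chromosome 9, 70255496 to 70269361), had 19.5, 49.2, 31.2 and 30.4 CPM in control replicates 1 to 4, 1.48, 19.9, 2.77 and 10.9 CPM in NA10hd replicates 1 to 4, and 111, 119 and 158 CPM in NV replicates 1 to 3. NV was again clear of control, while NA10hd ranged from near 0 to the level of control replicate 1. Its log2 fold change was 1.97 (SE 0.25, adjusted p = 0.00133) in NV and -1.88 (SE 0.63, adjusted p = 0.289) in NA10hd. Ccna2, the cyclin A of S phase and G2 (ENSMUSG00000027715, chromosome 3, 36463788 to 36471072), had 7.33, 53.5, 35.8 and 33.5 CPM in control replicates 1 to 4, 6.51, 17.3, 6.22 and 3.41 CPM in NA10hd replicates 1 to 4, and 108, 147 and 149 CPM in NV replicates 1 to 3. Control replicate 1 was far below the other control libraries and within the NA10hd range. Ccna2 had log2 fold changes of 2.02 (SE 0.40, adjusted p = 0.0129) in NV and -1.94 (SE 0.57, adjusted p = 0.26) in NA10hd, and 14.6% of its exon length is shared with Exosc9 on the other strand. Ccnb1, the other B-type cyclin, went from 29.7 ± 14.4 CPM in control (SD, n = 4) to 111 ± 40.9 in NV (n = 3) and 9.52 ± 5.75 in NA10hd (n = 4), with log2 fold changes of 1.89 (SE 0.32, adjusted p = 0.00557) and -1.63 (SE 0.44, adjusted p = 0.228).

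The chromosomal passenger complex, which corrects faulty attachments of chromosomes to the spindle, had all 4 of its genes higher in NV by the test (median 1.89) and a median of -1.06 in NA10hd. Aurkb, its kinase (ENSMUSG00000020897, chromosome 11, 68859149 to 68865166), stood at 16.8, 34.5, 38.6 and 41.2 CPM in control replicates 1 to 4, 12, 2.62, 4.84 and 1.7 CPM in NA10hd replicates 1 to 4, and 96.7, 126 and 138 CPM in NV replicates 1 to 3. The 3 genotypes did not overlap, and 3 of the 4 NA10hd libraries were under 5 CPM. The log2 fold change of Aurkb was 1.86 (SE 0.25, adjusted p = 0.00169) in NV and -2.63 (SE 0.54, adjusted p = 0.118) in NA10hd, the second smallest p of the 48 in the latter comparison. Cdca8, the borealin subunit (ENSMUSG00000028873, chromosome 4, 124595709 to 124616555), had 14.7, 49.9, 37.4 and 36.6 CPM in control replicates 1 to 4, 9.46, 24.7, 17.9 and 8.94 CPM in NA10hd replicates 1 to 4, and 99.1, 152 and 147 CPM in NV replicates 1 to 3. NV lay above control throughout, and NA10hd overlapped control replicate 1. Cdca8 had log2 fold changes of 1.92 (SE 0.30, adjusted p = 0.00347) in NV and -1.17 (SE 0.41, adjusted p = 0.313) in NA10hd. The scaffold Incenp and the survivin gene Birc5 rose in NV by 1.48 (SE 0.24, adjusted p = 0.00416) and 2.08 (SE 0.39, adjusted p = 0.00977). In NA10hd their values were -0.57 (SE 0.32, adjusted p = 0.504) and -0.94 (SE 0.59, adjusted p = 0.551). Whether Aurkb differed from its 3 partners there was not tested. Per kilobase, Aurkb was the highest of the 4 subunits in control (11.1 CPM per kb) and in NV (40.9) and the lowest in NA10hd (1.8).

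Of the 6 spindle checkpoint genes and APC/C partners, 5 rose in NV (median 1.58), and the median in NA10hd was -1.76, or -0.93 with matched libraries. Cdc20, which switches on the APC/C once chromosomes are attached (ENSMUSG00000006398, chromosome 4, 118105506 to 118109957), stood at 22.5, 47.5, 41 and 27.3 CPM in control replicates 1 to 4, 26.3, 34.2, 7.86 and 5.54 CPM in NA10hd replicates 1 to 4, and 96.4, 119 and 92.4 CPM in NV replicates 1 to 3. NV was above control, and the NA10hd libraries split into a pair within the control range and a pair under 8 CPM. The log2 fold change of Cdc20 was 1.56 (SE 0.23, adjusted p = 0.00273) in NV and -0.90 (SE 0.50, adjusted p = 0.502) in NA10hd. Ube2c, the ubiquitin-conjugating enzyme that works with the APC/C, rose by 2.24 (SE 0.40, adjusted p = 0.00716) in NV, from 26.6 ± 14.8 to 129 ± 30.5 CPM. Its value in NA10hd, -3.15 (SE 0.85, adjusted p = 0.226), was the lowest of the 48, on a level of 2.9 ± 3.44 CPM with a count of 0 in replicate 4, and 22.8% of its exon length is shared with Tnnc2 on the other strand. The checkpoint kinases Bub1 and Bub1b rose in NV by 1.86 (SE 0.30, adjusted p = 0.00392) and 1.61 (SE 0.26, adjusted p = 0.00395), and the checkpoint protein Mad2l1 rose by 1.09 (SE 0.17, adjusted p = 0.00299). The kinase Ttk had 1.02 (SE 0.28, adjusted p = 0.0572) in NV and was not called, although its libraries did not overlap with control. Mad2l1 had the most even levels of the 6, with 30.8 ± 3.23 CPM in control and 21.6 ± 2.53 in NA10hd and no overlap between them.

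All 7 centromere and kinetochore genes rose in NV (median 2.02), and their median in NA10hd was -0.30, or -0.94 without NA10hd replicate 1 and -0.04 with matched libraries. With matched libraries 2 of the 7 were called in NV (median 1.61), as were 2 without NV replicate 2 (median 2.0) and 1 without NV replicate 3 (median 1.88). Cenpa, the histone H3 variant that marks centromeres (ENSMUSG00000029177, chromosome 5, 30969150 to 30977200), stood at 24.9, 40.4, 67.3 and 37.5 CPM in control replicates 1 to 4, 25.8, 29.6, 33.4 and 73.4 CPM in NA10hd replicates 1 to 4, and 78.6, 106 and 124 CPM in NV replicates 1 to 3. NA10hd replicate 4 was above every control library, where the other three lay within the control range. Cenpa had log2 fold changes of 1.26 (SE 0.27, adjusted p = 0.0189) in NV and -0.08 (SE 0.36, adjusted p = 0.954) in NA10hd. Ndc80, the microtubule-binding subunit of the complex that bears its name (ENSMUSG00000024056, chromosome 17, 71845440 to 71876197), had 7.69, 10.6, 8.77 and 7.8 CPM in control replicates 1 to 4, 21.6, 8.2, 2.42 and 2.84 CPM in NA10hd replicates 1 to 4, and 35.8, 35.6 and 35.9 CPM in NV replicates 1 to 3. The NV libraries were within 1 CPM of each other, and the NA10hd libraries lay on both sides of control. Its rise in NV was 2.02 (SE 0.22, adjusted p = 0.000544). Cenpf, a large kinetochore protein made in G2 (ENSMUSG00000026605, chromosome 1, 191464478 to 191511965), had 3.93, 30.7, 16 and 9.28 CPM in control replicates 1 to 4, 1.23, 3.5, 2.42 and 5.11 CPM in NA10hd replicates 1 to 4, and 65.7, 88.6 and 59.1 CPM in NV replicates 1 to 3. The control libraries spread widely, and the highest NA10hd library was above only control replicate 1. Cenpf had log2 fold changes of 2.21 (SE 0.45, adjusted p = 0.0141) in NV and -2.29 (SE 0.64, adjusted p = 0.249) in NA10hd, and it had one of the 3 smallest p values in NA10hd against NV. The kinetochore motor Cenpe and the other NDC80 complex subunits Nuf2, Spc24 and Spc25 rose in NV by 2.32 (SE 0.53, adjusted p = 0.0235), 2.16 (SE 0.47, adjusted p = 0.0201), 1.64 (SE 0.33, adjusted p = 0.0134) and 1.21 (SE 0.27, adjusted p = 0.0201). In NA10hd these 4 had values of -0.25 (SE 0.82, adjusted p = 0.93), -0.76 (SE 0.99, adjusted p = 0.816), -1.11 (SE 0.46, adjusted p = 0.37) and -0.30 (SE 0.37, adjusted p = 0.806).

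Among the 9 spindle assembly factors 7 rose in NV (median 1.76), and the median in NA10hd was -1.91, or -0.94 with matched libraries. With those libraries 4 of the 9 were called in NV (median 1.24), as were 3 without NV replicate 2 and 4 without NV replicate 3. Ckap2l, a spindle microtubule protein (ENSMUSG00000048327, chromosome 2, 129093946 to 129122948), stood at 8.58, 16.5, 12.4 and 15.3 CPM in control replicates 1 to 4, 1.11, 3.58, 1.64 and 1.99 CPM in NA10hd replicates 1 to 4, and 61.4, 64.4 and 88.7 CPM in NV replicates 1 to 3. The 3 genotypes were far apart, with every NA10hd library under 4 CPM and every NV library over 60 CPM. It had the largest log2 fold change of the 48 in NV, 2.42 (SE 0.24, adjusted p = 0.000272), and the smallest p of the 48 in NA10hd, -2.65 (SE 0.53, adjusted p = 0.104). Tpx2, which activates the kinase Aurora A on the spindle (ENSMUSG00000027469, chromosome 2, 152673700 to 152721057), had 9.65, 23.2, 49.7 and 14.7 CPM in control replicates 1 to 4, 5.04, 8.83, 5.01 and 4.4 CPM in NA10hd replicates 1 to 4, and 71.7, 72.5 and 68.1 CPM in NV replicates 1 to 3. The genotypes did not overlap, though control replicate 1 was close to NA10hd replicate 2. Tpx2 had log2 fold changes of 1.51 (SE 0.40, adjusted p = 0.0477) in NV and -2.06 (SE 0.50, adjusted p = 0.201) in NA10hd, and its call in NV was kept in 1 of the 7 fits with a library left out and lost with DESeq2 (adjusted p = 0.0773), the replicate block (adjusted p = 0.0592) and matched libraries. Pbk, a mitotic protein kinase (ENSMUSG00000022033, chromosome 14, 66424674 to 66436659), had 34.9, 44.6, 43.4 and 35.9 CPM in control replicates 1 to 4, 9.71, 38.6, 15.6 and 2.56 CPM in NA10hd replicates 1 to 4, and 124, 125 and 158 CPM in NV replicates 1 to 3. Control and NV were each tight, and NA10hd ran from 2.56 CPM to within the control range. Its log2 fold change was 1.76 (SE 0.15, adjusted p = 0.000103) in NV, the smallest p of the 48, and -1.24 (SE 0.54, adjusted p = 0.393) in NA10hd. Plk1, the polo-like kinase, rose by 1.92 (SE 0.34, adjusted p = 0.00713) in NV, as did 3 genes of proteins that bind spindle microtubules: Hmmr by 1.89 (SE 0.36, adjusted p = 0.00998), Nusap1 by 1.83 (SE 0.39, adjusted p = 0.0172) and Ckap2 by 1.29 (SE 0.28, adjusted p = 0.018). Aurka, the gene of Aurora A, and the microtubule factor Tacc3 were not called in NV, at 1.32 (SE 0.38, adjusted p = 0.0686) and 0.69 (SE 0.21, adjusted p = 0.0827).

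Of the 7 kinesins, 3 rose in NV, with a median of 1.70 there and of -1.5 in NA10hd. The NA10hd median was -2.34 without NA10hd replicate 2 and -0.98 with matched libraries (6 tested). All genotypes in one fit gave no call among the 7 in NV. Kif22, a motor that rides on chromosome arms (ENSMUSG00000030677, chromosome 7, 134171246 to 134185934), stood at 13.1, 21, 21.8 and 23.7 CPM in control replicates 1 to 4, 5.28, 16, 2.07 and 4.4 CPM in NA10hd replicates 1 to 4, and 58.4, 76.7 and 64.5 CPM in NV replicates 1 to 3. NV was above control, and NA10hd was below it except for replicate 2. Kif22 had log2 fold changes of 1.73 (SE 0.22, adjusted p = 0.00132) in NV and -1.5 (SE 0.54, adjusted p = 0.318) in NA10hd. Kif23, a subunit of centralspindlin at the spindle midzone (ENSMUSG00000032254, chromosome 9, 61765087 to 61794606), had 24, 34.8, 33.6 and 28.9 CPM in control replicates 1 to 4, 24, 36, 20.3 and 22.3 CPM in NA10hd replicates 1 to 4, and 31.5, 47.6 and 53.7 CPM in NV replicates 1 to 3. It was the one gene of the 48 whose libraries overlapped in all 3 comparisons. Its log2 fold change was 0.54 (SE 0.22, adjusted p = 0.2) in NV and -0.24 (SE 0.27, adjusted p = 0.778) in NA10hd. Kif11, which pushes spindle poles apart, and Kif2c, a microtubule depolymerase, rose in NV by 2.19 (SE 0.34, adjusted p = 0.00306) and 2.20 (SE 0.52, adjusted p = 0.0281), the latter with an adjusted p of up to 0.167 when a library was left out. Kif4, a chromosome-bound motor, and Kif15, a spindle motor, had 1.70 (SE 0.56, adjusted p = 0.106) and 1.22 (SE 0.43, adjusted p = 0.128) in NV, and Kif20a, which acts at the midzone, had 1.38 (SE 0.45, adjusted p = 0.107). These 3 were not called, and 15.1% of the exon length of Kif4 and 32.3% of that of Kif20a are shared with genes on the other strand.

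Of the 4 cytokinesis genes, 3 rose in NV (median 1.52). With matched libraries 2 were called, without NV replicate 2 or without NV replicate 3 it was 1, and with all genotypes in one fit 0. The median in NA10hd was -1.22, or -0.36 with matched libraries. Racgap1, the partner of Kif23 in centralspindlin (ENSMUSG00000023015, chromosome 15, 99450927 to 99482087), stood at 18.9, 40.4, 29.7 and 35.1 CPM in control replicates 1 to 4, 35.8, 42.5, 25.1 and 13.1 CPM in NA10hd replicates 1 to 4, and 78, 93.2 and 80.6 CPM in NV replicates 1 to 3. NV was above control throughout, and the NA10hd libraries reached both above and below the control range. Racgap1 had log2 fold changes of 1.42 (SE 0.22, adjusted p = 0.0034) in NV and -0.09 (SE 0.35, adjusted p = 0.943) in NA10hd. Prc1, which bundles midzone microtubules, and the contractile ring protein Anln rose in NV by 1.64 (SE 0.33, adjusted p = 0.0134) and 1.62 (SE 0.34, adjusted p = 0.0172). Ect2, the exchange factor that starts furrowing, overlapped with control in NV, at 0.72 (SE 0.36, adjusted p = 0.308). In NA10hd, Prc1 stood below control in all libraries, at -2.03 (SE 0.62, adjusted p = 0.276).

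Of the condensin and chromosome structure genes, 6 of 7 rose in NV (median 1.89; 4 were called with matched libraries, at a median of 1.54), and the median in NA10hd was -0.47. Top2a, the topoisomerase that untangles sister chromatids (ENSMUSG00000020914, chromosome 11, 98854257 to 98885503), stood at 46, 85.2, 98.6 and 54.7 CPM in control replicates 1 to 4, 27.9, 36.8, 16.9 and 12.1 CPM in NA10hd replicates 1 to 4, and 263, 293 and 247 CPM in NV replicates 1 to 3. The 3 genotypes did not overlap. Top2a had log2 fold changes of 1.90 (SE 0.22, adjusted p = 0.000911) in NV and -1.60 (SE 0.35, adjusted p = 0.154) in NA10hd, the third smallest p of the 48 in the latter. Mki67, which coats mitotic chromosomes and is used as a marker of cycling cells (ENSMUSG00000031004, chromosome 7, 142881471 to 142908062), had 27.4, 47, 48.6 and 29.1 CPM in control replicates 1 to 4, 14, 24.1, 5.27 and 1.7 CPM in NA10hd replicates 1 to 4, and 118, 160.0 and 149.7 CPM in NV replicates 1 to 3. NV was 3.71 times control, and the NA10hd libraries ranged from just under the lowest control library to 1.70 CPM. Its log2 fold change was 1.89 (SE 0.21, adjusted p = 0.000822) in NV and -1.74 (SE 0.57, adjusted p = 0.289) in NA10hd.

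Condensin I holds a pair of core ATPases, Smc2 and Smc4, which condensin II also uses, and the subunits Ncapd2, Ncapg and Ncaph, which belong to condensin I alone. In NV the core subunits had the smallest changes of the 5, 0.64 (SE 0.17, adjusted p = 0.0451) for Smc2 and 0.59 (SE 0.16, adjusted p = 0.0512) for Smc4, on either side of the threshold. Each was called in 2 of the 7 fits with a library left out, and neither with the replicate block or with matched libraries. DESeq2 called both (adjusted p = 0.00697 for Smc2 and 0.00871 for Smc4), as did edgeR without the filter on low counts. The other 3 rose, Ncapd2 by 1.75 (SE 0.25, adjusted p = 0.0021), Ncapg by 2.14 (SE 0.36, adjusted p = 0.00568) and Ncaph by 2.12 (SE 0.32, adjusted p = 0.00273). The control levels per kilobase were 19.2 for Smc4, 11.5 for Smc2, 6.3 for Ncapd2, 2.07 for Ncaph and 0.64 for Ncapg, in CPM per kb. The subunit with the highest level (Smc4) was 30.0 times the lowest (Ncapg) in control, 10.2 times in NV and 103.8 times in NA10hd. The NA10hd ratio rests on few counts, as Ncapg had 16, 23, 3 and 2 in replicates 1 to 4. Of its exon length 13.3% is shared with Lcorl on the other strand. The subunits of the NDC80 complex differed less, with 3.54 times between the highest and the lowest in control and 2.84 times in NV. In NA10hd the log2 fold changes of condensin ran from -2.04 (SE 0.84, adjusted p = 0.37) for Ncapg to -0.07 (SE 0.62, adjusted p = 0.974) for Ncaph.

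**Figure D4:**
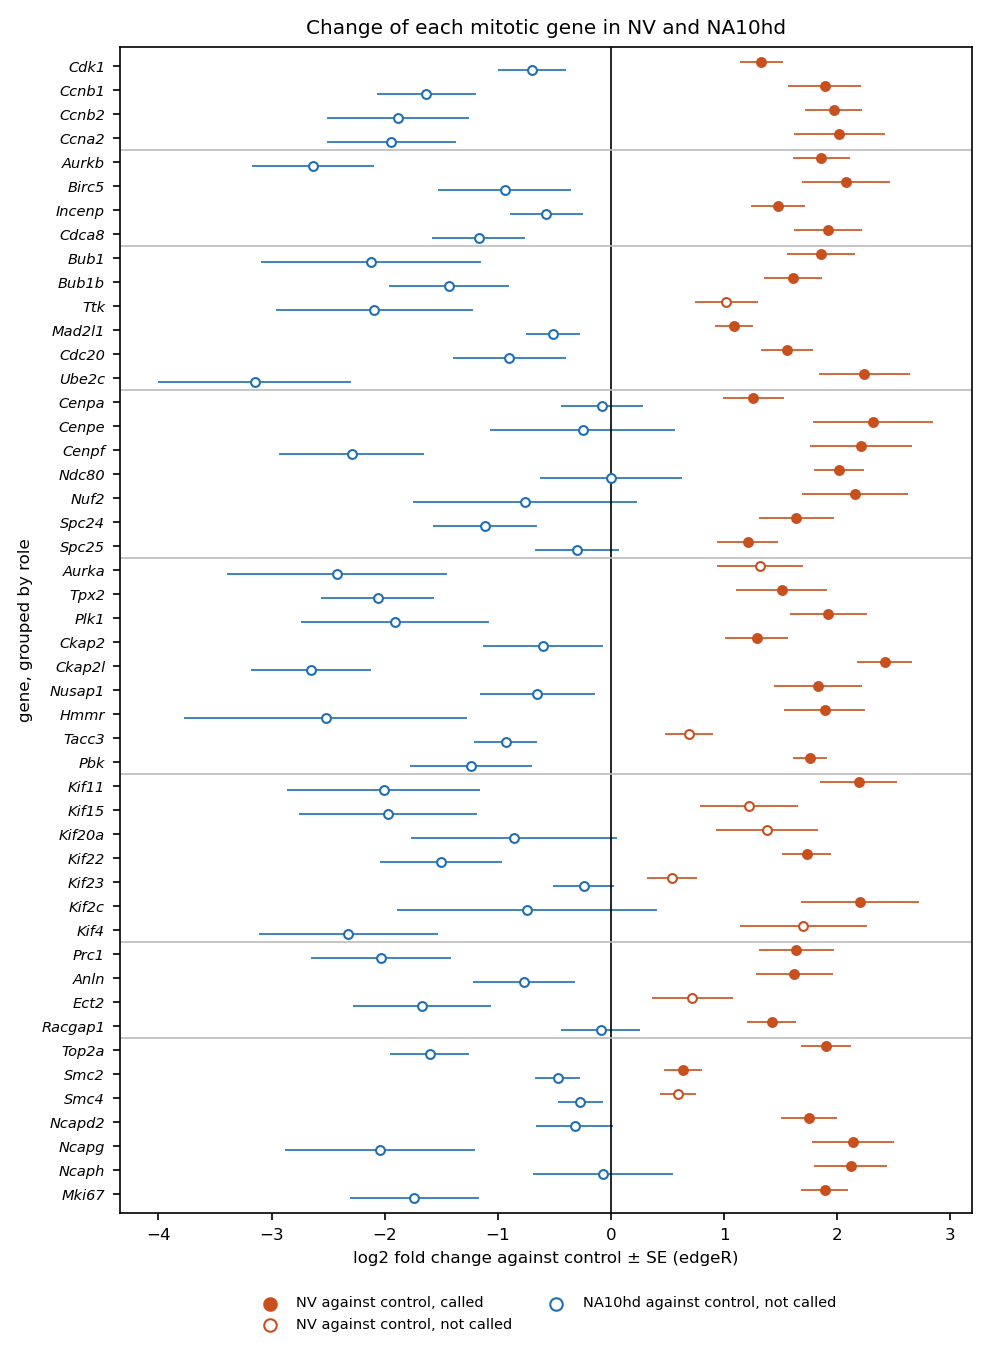
Log2 fold change against control with its SE (x axis) for each of the 48 genes (y axis, by role), NV in orange and NA10hd in blue, filled where called by edgeR. All 48 NV points lie above 0, from 0.54 to 2.42, with 39 filled, and 47 of the NA10hd points lie below 0, the lowest at -3.15 (Ube2c), with none filled.

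The genotypes were also set against each other directly. In NA10hd against NV, 40 of the 48 genes were called lower (83.3%), where 2.79% of all 13461 tested genes were, and the median log2 fold change was -3.03 against 0.01 over all tested genes. In 47 genes every NA10hd library stood below every NV library, against 11.3% of all tested genes, and Kif23 was the exception. The smallest p values belonged to Ckap2l at -5.07 (SE 0.40, adjusted p = 0.000173), Tpx2 at -3.60 (SE 0.31, adjusted p = 0.000269) and Cenpf at -4.55 (SE 0.42, adjusted p = 0.00039), and the lowest value to Ube2c at -5.38 (SE 0.72, adjusted p = 0.00223). Hmmr, Ckap2, Ttk, Ndc80, Nuf2, Kif2c, Kif23 and Kif20a were not called. Without NV replicate 1, 2 or 3 the count was 28, 24 or 23, with medians of -3.17, -3.01 and -2.98 and all 48 genes still below 0. The genes called lower over all those tested went from 376 to 140, 99 and 93. No NA10hd library held both sexes, so here the genotype and the sex mix of the libraries cannot be told apart.

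Gene by gene, the NA10hd libraries had the widest relative spread. The median over the 48 genes of the coefficient of variation between replicates was 40.3% in control, 71.5% in NA10hd and 17.7% in NV. The summed level of the 48 genes was less spread in NA10hd (581.1 ± 107.5 CPM, SD, n = 4) than in control (1134 ± 322.5 CPM, SD, n = 4). Replicate 4 had a count of 0 for 6 genes (Aurka, Hmmr, Kif11, Plk1, Ttk and Ube2c), replicate 3 for Bub1 and Hmmr, and replicate 1 for Kif2c, while no control or NV library had a 0. Of all libraries, NA10hd replicates 4 and 1 had the fewest genes with a count (13859 and 14430). NA10hd replicate 2 came next (15361). The part of this in the zeros and the spread was not tested. The 0 of replicate 4 allows up to 0.394 CPM by its total counts, before its TMM factor of 0.924 is applied. Replicate 4 was the lowest NA10hd library for 23 genes and the highest for 12, among them Cenpa, Cenpe, Incenp, Ckap2, Kif2c and Ncapd2. Without it the median of the 48 genes against control was -1.19.

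Genes of the same processes outside the module were counted in the same fits. In NV against control, where 2.55% of all tested genes were called higher, 14 of 31 other spindle and cytokinesis genes rose (median 1.38), with the smallest p for the separase gene Espl1 at 2.04 (SE 0.24, adjusted p = 0.000915), Fam64a at 2.25 (SE 0.29, adjusted p = 0.00145) and the tubulin Tubb5 at 0.66 (SE 0.09, adjusted p = 0.00145). Of 31 other kinetochore genes 12 rose (median 0.82), among them the centromere loading factor Hjurp (0.93, SE 0.12, adjusted p = 0.00133) and the centromere protein Cenpn (1.60, SE 0.26, adjusted p = 0.00396). Of 13 other condensin and cohesin genes 2 rose (median 0.22): Cdca5, the cohesin protector sororin (1.20, SE 0.21, adjusted p = 0.00716), and the condensin II subunit Ncapd3 (0.83, SE 0.16, adjusted p = 0.0122). Ncapg2, also of condensin II, had 0.94 (SE 0.29, adjusted p = 0.0857). Of 15 APC/C subunits and partners 2 rose (median 0.18), and neither is a core subunit: Fbxo5, the inhibitor Emi1 (1.41, SE 0.22, adjusted p = 0.00389), and the coactivator Fzr1 (0.86, SE 0.15, adjusted p = 0.00684). The subunit Cdc27 had 0.55 (SE 0.15, adjusted p = 0.0499), which is under the fold threshold.

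Regulators of mitotic transcription rose in part, 6 of 24 (median 0.15): E2f7, E2f8, Foxm1, Mybl2, Rbl1 and Tfdp1. The values of E2f8, a late repressor, Mybl2 (B-Myb) and Foxm1 were 2.49 (SE 0.31, adjusted p = 0.00132), 1.79 (SE 0.24, adjusted p = 0.00187) and 1.55 (SE 0.33, adjusted p = 0.0178). Of 6 entry phosphatases and kinases 3 rose (median 1.07): Ccnf (1.69, SE 0.34, adjusted p = 0.0130), Pkmyt1 (1.47, SE 0.36, adjusted p = 0.0361) and Cdc25b (0.66, SE 0.17, adjusted p = 0.0422). Of 20 DNA replication genes 12 rose (median 0.81), with the smallest p for Tyms (1.08, SE 0.14, adjusted p = 0.00133), Cdt1 (1.06, SE 0.15, adjusted p = 0.00212) and Mcm5 (0.95, SE 0.14, adjusted p = 0.00254). EdgeR called none of the genes in these 7 lists lower in NV, where 2.21% of all tested genes were. Log2 fold changes were below 0 for 6 of 13 condensin and cohesin genes and 6 of 15 in the APC/C list. So were those of 5 of 24 regulators and 1 of 31 other kinetochore genes. Over all tested genes 48.6% were above 0.

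In NA10hd against control the medians of these lists were -0.67 for other kinetochore genes (29 tested), -0.55 for other spindle genes (29 tested), -0.36 for condensin and cohesin, 0.01 for the APC/C list, -0.41 for regulators, -0.67 for entry phosphatases and kinases and -0.60 for replication. EdgeR called a single gene among them, Rrm1, the large subunit of ribonucleotide reductase, at -1.26 (SE 0.17, adjusted p = 0.0434). DESeq2 called 5 replication genes, 2 of condensin and cohesin and 2 regulators, in either direction. It also called 1 each of the spindle, APC/C and entry lists and no other kinetochore gene. Over all genes it called 240 of 18828. The edgeR call of Rrm1 was lost with the replicate block (adjusted p = 0.334) and with matched libraries (adjusted p = 0.768). It was also lost when any library other than NA10hd replicate 4 was left out (adjusted p = 0.0581 to 0.222). Log2 fold changes in these fits were -1.32 to -1.03. Rrm1 stayed called with DESeq2 (adjusted p = 2.515e-10), limma-voom (0.0404) and edgeR with DESeq2's size factors (0.0391). The same held for edgeR without the filter (0.0195) and for the single fit of all genotypes (0.00335). Foxm1 and Mybl2 had -0.07 (SE 0.81, adjusted p = 0.980) and -0.67 (SE 0.64, adjusted p = 0.724) there. In the plot of related lists the medians of the 48 genes are the furthest from 0 of the lists drawn, in both comparisons.

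**Figure D5:**
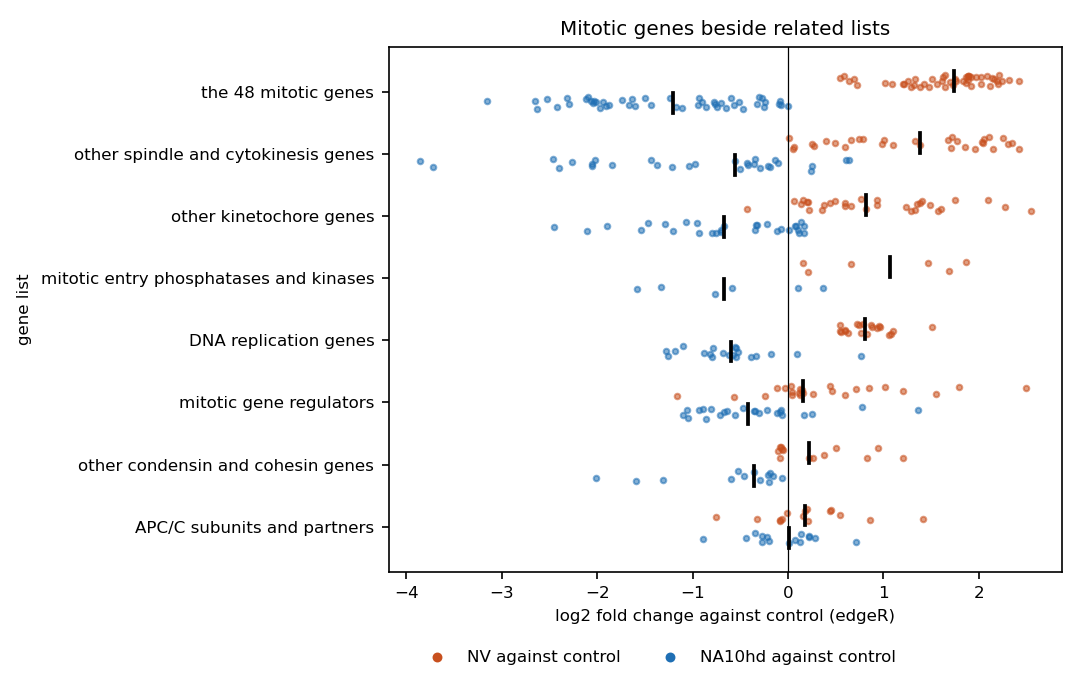
Log2 fold change against control (x axis) of every tested gene of the 48 and of 7 related lists (y axis), NV in orange and NA10hd in blue, with a black bar at each median. The medians of the 48 genes are 1.74 and -1.20, and those of the APC/C list are 0.18 and 0.01.

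The genes were also split by the CHR letters in their window, without a test of the difference. The median log2 fold change in NV was 1.70 for the 31 genes with the CHR (25 called) and 1.89 for the 9 without (8 called). In NA10hd the medians were -1.60 and -0.76, over the same genes and with no gene called by edgeR. The 8 genes without a listed window are in neither count. Mad2l1, whose window held neither motif, rose in NV, as did Birc5, Nuf2, Nusap1 and Ncaph, and Tacc3 did not pass the test. The 48 genes lie on 18 chromosomes, 9 of them on chromosome 2.

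Markers of other blood cells were read beside these results. Of 9 erythroid markers 3 passed the filter in NV against control and 2 of these rose, Epor by 1.37 (SE 0.26, adjusted p = 0.0105) and Klf1 by 2.17 (SE 0.50, adjusted p = 0.0257), and the summed erythroid level ran from 23.0 to 31.6 CPM across control libraries, from 20.01 to 42.1 across NA10hd and from 48.1 to 88.3 across NV libraries. Of 6 megakaryocyte markers 3 rose in NV (Pf4, Itga2b and Ppbp) and Vwf fell, where 2.55% of all tested genes were called higher and 2.21% lower, and the sum was 310.4 to 336.3 CPM for control, 239.9 to 406.6 for NA10hd and 277.2 to 592.7 for NV. Summed progenitor markers were 397.1 to 567.2 CPM for control, 530.9 to 689.4 for NA10hd and 374.8 to 436.6 for NV, with Ctsg, Dntt and Il7r at 0. Most of each sum was Prtn3 (means of 338.3, 450.7 and 266.8 CPM). Cd48 and Ms4a3 were highest in NV, at low means of 3.61 and 1.47 CPM. Of 5 progenitor markers tested in NV against control, 3 were higher and 2 lower, with none called. Of 8 mature myeloid markers 2 passed the filter and of 7 lymphoid markers 1, Nkg7, at 1.71 (SE 0.46, adjusted p = 0.0530), and edgeR called none of them in NV against control, with Nkg7 the 1 gene at an unadjusted p under 0.05. The lymphoid sum was 3.11 to 19.9 CPM for control, 1.11 to 13.7 for NA10hd and 29.0 to 51.3 for NV, with Cd3e, Cd3g and Ms4a1 at 0, and the myeloid sum was 439.0 to 554.4, 376.0 to 527.6 and 492.8 to 527.6 CPM, nearly all of it Lyz2 (means of 493.3, 467.5 and 507.3 CPM). Of the 12 HSC markers, Procr (-0.72, SE 0.13, adjusted p = 0.00872) and Fgd5 (-1.13, SE 0.27, adjusted p = 0.0284) fell and Ly6a (0.70, SE 0.14, adjusted p = 0.0126) rose in NV. In NA10hd against NV, Klf1 (-4.25, SE 0.88, adjusted p = 0.0199), Pf4 (-3.42, SE 0.39, adjusted p = 0.000782), Itga2b (-1.57, SE 0.27, adjusted p = 0.00872), Ppbp and Nkg7 (-2.58, SE 0.60, adjusted p = 0.0344) were called lower. Called higher there, as were 2.3% of all tested genes, were Vwf, Prtn3 and 5 of the HSC markers, among them Procr (1.41, SE 0.21, adjusted p = 0.00379) and Hoxb5 (1.93, SE 0.36, adjusted p = 0.0120). The part of these markers and of the sex mix in the levels of the mitotic genes was not tested.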

How the data were processed

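The authors sorted HSC, amplified their cDNA and sequenced the libraries. The submitters' processing notes name Hisat2, featureCounts and the build NCBIM37. Versions, the annotation, the strand setting and how multi-mapped reads were treated are not given in the sources used here. The deposited table holds raw counts per gene for 11 libraries, without normalization, and no other column of samples. Groups follow the labelled genotype. Symbols, positions and exon lengths came from a GENCODE annotation of the same build.

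Each comparison was fitted on its own libraries and on all genes with edgeR 4.0.16 in R 4.3.3 (TMM, the default filter on low counts, quasi-likelihood test, Benjamini-Hochberg adjustment), and checked on simulated counts. CPM were scaled by the TMM factors. Alternatives used DESeq2 1.42.0, limma-voom (limma 3.58.1), DESeq2's size factors, no filter, no fold threshold, one fit of all genotypes, a replicate block, libraries matched for Xist and Y-linked counts, and each library left out in turn. No alternative was added after these were set down.

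The 48 genes, the related lists and the markers were chosen with earlier results of these data known, so no list is independent support for its direction. Values in every library are given for the gene with the highest mean and the gene with the smallest p in NV of each role, the 3 smallest p of each comparison, Cdk1, Top2a and Mki67. Of other lists, the 3 smallest p in NV and every gene called in NA10hd or against the direction of the 48 are named, except that some list members counted are not reported here by name. Further names follow the roles. Of list symbols, Ska2, Ska3, Bora and Ebf1 were not matched. Exons of 10 of the 48 genes share bases with another annotated gene, over 10% of the length in 5 (Ccna2, Kif20a, Kif4, Ncapg and Ube2c), and without a strand setting such reads cannot be assigned. Figures were drawn with matplotlib.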

Additional observations from a re-analysis of the deposited data

Results flagged for a closer look

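Of 98 groups of 4 libraries tested for a single library standing apart (its gap to the nearest library divided by the range of the group), 7 were above Dixon's critical value, and chance flags about 1 in 20 groups. In control, replicate 2 was far above the others for Ccnb1 (51.2 CPM) and Ncapd2 (46.0 CPM). In NA10hd, replicate 4 was far above the others for Cenpa (73.4 CPM) and Kif2c (6.67 CPM), replicate 1 for Hmmr (5.04 CPM) and Kif20a (7.13 CPM), and replicate 2 for Tpx2 (8.83 CPM). In each case the library that stood apart was the highest of its group.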

How the results depend on the processing

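In NV against control all 48 genes kept a log2 fold change above 0 under each alternative run. The count of called genes was 10 with all genotypes in one fit and otherwise 27 to 42, and 23 to 41 with a library left out. The median was 1.59 to 1.92 with a library left out. In NA10hd against control the median stayed below 0, from -1.72 to -0.85, and -1.47 to -1.15 with a library left out, where edgeR called 0 of the 48. DESeq2 called 9 and the single fit 3. In NA10hd against NV 40 to 47 genes were called, 23 to 43 with a library left out, at medians of -3.31 to -2.75. The causes of these shifts were not tested.

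Over all genes, NA10hd against control gave 240 calls with DESeq2, 2 with limma-voom, 8 without the filter, 39 with the single fit, 0 with the replicate block and 0 with matched libraries, against 1, and 0 to 5 with a library left out. NV against control gave 1015 calls with DESeq2, 155 with the single fit and 301 with matched libraries, against 641, and 263 to 643 with a library left out. NA10hd against NV gave 1495 with DESeq2 and 1152 with the single fit, against 685, and 146 to 771 with a library left out.

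Replicate numbers did not pair the samples: deviations of equally numbered libraries correlated at -0.087 to 0.026. With the replicate block, 37 of the 48 genes were called in NV against control, 0 in NA10hd against control and 42 in NA10hd against NV.

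Single genes changed sign in NA10hd against control alone. With matched libraries these were Birc5 (0.24), Cenpe (0.52), Nuf2 (0.36), Nusap1 (0.64), Kif23 (0.02), Anln (0.17) and Racgap1 (0.35), and Ndc80 turned to -0.59 with limma-voom and -0.57 with the replicate block. With a library left out Ndc80 was -0.94 to 0.31, Cenpa -0.52 to 0.24, Cenpe -0.96 to 0.11, Racgap1 -0.33 to 0.15, Ncapd2 -0.53 to 0.01 and Ncaph -0.51 to 0.26. The cause was not tested.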
